A study of Mus musculus with 19 samples.

Results

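The comparison described here set 12 libraries of induced pluripotent stem cells (iPSC) against 3 libraries of embryonic stem cells (ESC) of the mouse, 15 of the 19 RNA sequencing libraries of the study. Members were chosen by the condition in the library title, and both NOD male iPSC clones were left out. The question was which genes differed between reprogrammed and embryo-derived cells apart from those that follow Col1a1, a collagen of fibroblasts, across the ESC. Fibroblasts are the feeder cells on which pluripotent cells are grown, so their RNA can enter a library of stem cells.

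The iPSC came from 10 clones of the inbred strains 129 (129S1/SvImJ), NOD (NOD/ShiLtJ) and WSB (WSB/EiJ), 6 of the 12 libraries being female and 6 male. They were made from embryonic fibroblasts with 1 lentiviral cassette that carries Pou5f1, Klf4, Sox2 and Myc and was not removed, and were depleted of feeder cells before RNA was taken, at passages 16 to 31. The 2 NOD and 4 WSB libraries were from clones kept in 2iS, a medium with serum, leukemia inhibitory factor (LIF) and inhibitors of GSK3B and MEK. Of the 6 libraries of 129, 4 were from cells in ESC/LIF medium, without the inhibitors, and 2 were the same male clones, 1 and 17, after a later move to 2iS. The 3 ESC lines, 1 male line of each strain at passage 6, were kept by their provider in serum and LIF with both inhibitors and reached the study as frozen pellets. Each iPSC is a clone and each strain has 1 ESC line. Cell origin, provider, passage and handling before extraction differ together between the groups and cannot be told apart here.

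Pluripotent cells keep the potential to form all tissues of the embryo through a network built around Pou5f1 and Sox2. Myc is a transcription factor that drives growth, ribosome production and cell division. Id2 belongs to the inhibitors of DNA binding, proteins that capture basic helix-loop-helix factors and are classic targets of BMP signalling. Both genes are reported first because they stood at or near 0 in all ESC.

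Between 115660 and 146249 read pairs fell on genes in the ESC and between 92996 and 226794 in the iPSC, which is 1.15% to 1.35% of the uniquely aligned pairs in ESC and 1.41% to 1.74% in iPSC. The groups did not overlap in this share. A count of 3 in a library is worth 13.2 to 32.3 CPM (counts per 1000000 gene counts) before normalisation, so low genes were measured coarsely. Of the 100 genes with most counts, 88 share exon bases with a gene that runs the other way. The kit marks the strand, but the strand setting of the counting is not given in the sources used here. Which strand was counted is thus not known for any gene, also where nothing lies opposite. Reads of a gene and of its partner cannot be told apart.

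In all, 248 of 3986 tested genes passed an adjusted p of 0.05, which is 6.22% of them (edgeR's quasi-likelihood test with Benjamini-Hochberg adjustment). Only 40 genes, or 1% of those tested, were higher in iPSC and 208, or 5.22%, were lower. The share of higher genes among the calls rested on the scaling. With the uniquely aligned pairs as library size the median log2 fold change of all genes moved by 0.29, and 197 genes were higher and 129 lower. Every iPSC was above every ESC for 65 tested genes, which is 1.63%, and below for 176, which is 4.42%. This held for 32 of the 40 genes called higher and for 139 of the 208 called lower. Among the calls shown in the plot of fold change against level, none but Id2 and Myc rose by more than Poglut1.

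**Figure D1:**
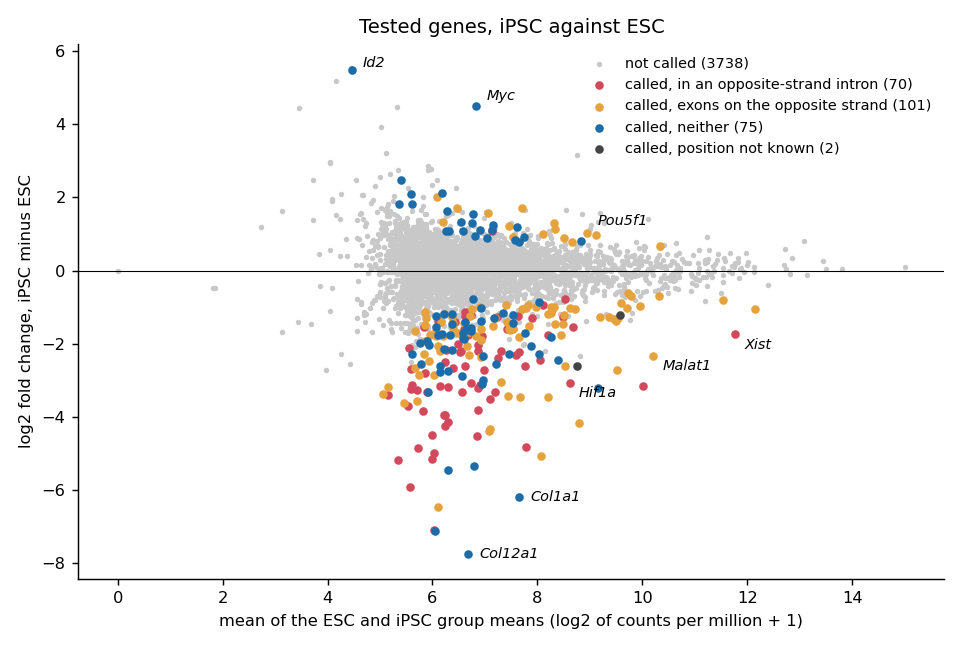
Log2 fold change of iPSC minus ESC (vertical axis) against the mean of both group means as log2 of CPM + 1 (horizontal axis), 1 point per tested gene. Grey points were not called, and coloured points are the 248 called genes by what lies on the opposite strand. Among called genes Myc and Id2 stand alone at the top, at 4.50 and 5.47, and Col12a1 at the bottom, at -7.76.

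Myc (chr15:61985391-61990374, GRCm38) had 0, 1 and 2 read pairs in the NOD, WSB and 129 ESC, or 0, 9.65 and 14.5 CPM. In the 12 iPSC it had 12 to 59 read pairs, from 108 CPM at the lowest through a median of 221 to 328 at the highest. The groups were far apart and every iPSC, of each strain, sex and medium, lay above every ESC. The log2 fold change was 4.50 (SE 0.66, adjusted p = 0.000109 in edgeR), and the ratio of the pooled counts was 24.7-fold, with an exact 95% interval from 8.39 to 120 that covers counting error only. The increase passed without any single ESC, with edgeR adjusted p from 0.0013 to 0.0024. At no more than 14.5 CPM in ESC, Myc could pass the filter on low counts only through other libraries. Its direction was therefore fixed by that filter. Libraries in ESC/LIF medium held 203 to 287 CPM of Myc and libraries in 2iS 108 to 328, so the media overlapped. Nothing lies on the opposite strand of Myc, and reads of the integrated cassette were not separated from those of the gene itself.

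Id2 (chr12:25093799-25097140) had no read pair in any ESC. In the iPSC it had 1 to 14 read pairs in every library, from 6.77 CPM through a median of 31.3 to 137. All iPSC were above all ESC, but the lowest of them, a NOD female clone, held a single read pair. With no count in ESC, Id2 too could pass the filter on low counts only through other libraries, which fixed its direction. Against 3 counts over the 3 ESC together, Id2 was at least 4.46-fold higher in iPSC (fitted log2 fold change 5.47, SE 1.56, adjusted p = 0.0392 in edgeR). Without the NOD or the WSB ESC the edgeR adjusted p was 0.158 and 0.12, and without the 129 ESC the gene was not tested there. Of the list of 15 Id family and BMP target genes, Id2 was the only member with enough counts to be tested.

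Of the other reprogramming factors, Pou5f1, the central regulator of pluripotency, was higher in iPSC. It stood at 271, 338 and 356 CPM in the NOD, WSB and 129 ESC and between 444 and 822, with a median of 672, in the iPSC. The groups did not overlap and the log2 fold change was 1.03 (SE 0.24, adjusted p = 0.00853 in edgeR), though without the NOD ESC the adjusted p was 0.107. Klf4 had a log2 fold change of 1.01 (SE 0.36) that did not pass (edgeR adjusted p = 0.107), with 96.5 to 196 CPM in ESC and 135 to 523 in iPSC. Sox2 stood at 371 to 472 CPM in ESC and 230 to 436 in iPSC, a log2 fold change of -0.24 (SE 0.22, edgeR adjusted p = 0.6). The fitted fold changes of the 4 factors thus ran from -0.24 to 4.50, and the differences between factors were not tested. Pou5f1 shares 317 exon bases with Gm19553 on the opposite strand.

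**Figure D2:**
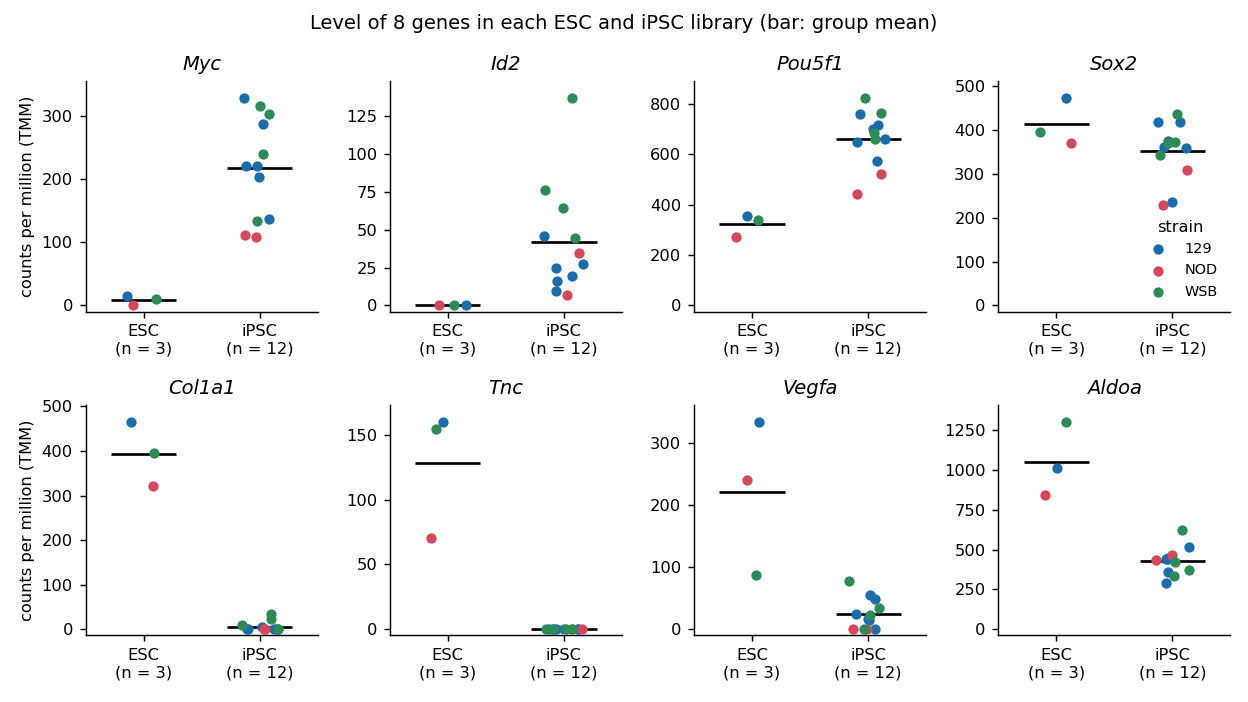
Level of 8 genes in CPM (vertical axes, linear from 0) in each ESC (n = 3) and iPSC (n = 12) library, coloured by strain, with bars at the group means. Myc, Id2 and Pou5f1 are higher in all iPSC than in all ESC, Sox2 overlaps, and Col1a1, Tnc, Vegfa and Aldoa are lower in all iPSC than in all ESC.

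The 13 tested genes of the list of naive pluripotency genes held no call in either direction. Their median log2 fold change was 0.43, beside 0.05 for all tested genes. Nanog had a log2 fold change of -0.17, Esrrb 0.48, Zfp42 0.23 and Tdh 0.96, none of which passed. All 18 tested members of the list of Myc family and target genes also missed the threshold, with a median of 0.43. With aligned pairs as library size, 2 naive and 4 Myc-list genes were called higher. The lists of FGF/ERK output, Wnt, LIF/STAT3, primed, DNA methylation, germline and 2-cell-like genes had 3, 1, 5, 6, 9, 3 and 1 tested members and no call. Spry4, of the FGF/ERK list, had a log2 fold change of 5.52 that just missed the threshold (edgeR adjusted p = 0.0519). With aligned pairs as library size, 1 member of the FGF/ERK list was called higher.

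The other genes called higher in iPSC had smaller fold changes than Id2 and Myc. Poglut1, an enzyme of the endoplasmic reticulum that adds glucose to Notch, had 4 read pairs in the 3 ESC together and 3 to 22 in each iPSC (log2 fold change 2.48, SE 0.62, adjusted p = 0.0186 in edgeR). Slc7a3, a carrier of cationic amino acids, rose by 2.09, and Gcsh, the H protein of the glycine cleavage system, by 1.82 on the log2 scale. Impact, a regulator of translation that is expressed from the paternal allele, rose by 2.11. Copz1, a subunit of the coatomer of vesicles, rose by 1.81, Gpx1, a glutathione peroxidase, by 1.64, and Slc25a3, the phosphate carrier of mitochondria, by 1.29. Ccne1 (cyclin E1), which takes cells into DNA replication, stood at 40.2 to 58.1 CPM in ESC and at 58.7 to 183 in iPSC, and rose by 1.34. It was the single call among 19 tested cell cycle genes, whose median log2 fold change was 0.23. Slc7a3, Gcsh and Copz1 missed the threshold with DESeq2 (adjusted p = 0.0566, 0.0648 and 0.0848).

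Several of the rising genes act in the nucleolus, where ribosomes are assembled. They were Utp14a (1.71 on the log2 scale), Gpatch4 (1.55), Brix1 (1.10), Dnttip2 (1.08) and Nat10 (1.07). Brix1 and Nat10 missed the threshold with DESeq2 (adjusted p = 0.0801 and 0.097). Of Dnttip2 100% of the exon bases lie in an intron of Gm17494 on the opposite strand. Utp14a shares 473 exon bases with 9530027J09Rik, whose mean was 1668 CPM in ESC and 3161 in iPSC (log2 fold change 0.92, not called). A list of 70 nucleolar genes drawn up after these values were seen had 54 tested members, 5 higher and 0 lower, with a median log2 fold change of 0.52, and 51 of them had a positive fold change (13 were called higher with aligned pairs as library size). That share called is 9.26%, beside 1% of all tested genes higher, but the list was chosen after the values were seen and gives no independent evidence. The translation factors Eif5a, Eef1b2 and Eef1d, also picked after their values were seen, rose by 0.81, 0.79 and 1.20. None of 40 tested cytosolic ribosomal protein genes passed, with a median of 0.28 and 29 positive values.

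Some of the increases stand opposite another gene. Gpr44, the receptor CRTH2 for prostaglandin D2, shares 1031 exon bases with Ccdc86, a nucleolar gene on the other strand. Gpr44 was counted at 60.2, 67.5 and 72.7 CPM in the ESC and at 123 to 269 in all iPSC (log2 fold change 1.56, SE 0.29, adjusted p = 0.00122 in edgeR). Gmpr2, a GMP reductase, shares 1540 exon bases with Tinf2 and rose by 1.29, while Tinf2 itself had a log2 fold change of -0.27. Ydjc rose by 2.02 and shares 1670 bases with Ube2l3, a ubiquitin-conjugating enzyme. Rmnd5b rose by 1.22 and shares 44 bases with Nhp2. Of all 40 higher genes, 3 passed without each ESC in turn, and these were Myc, Gpr44 and Gmpr2. Of the 208 lower genes 64 did.

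Among genes lower in iPSC, those of fibroblasts and extracellular matrix included the largest decreases. Of 21 tested members of this list of 50, 14 fell and 0 rose, which is 66.7% called beside 5.22% of all tested genes lower, and their median log2 fold change was -2.32 (12 fell with aligned pairs as library size, without Col4a1 and Serpinh1). Members at or near 0 in iPSC, such as Col12a1, Tnc, Ccdc80 and Lox, could pass the filter on low counts only through other libraries, so their direction was fixed by it and the count and median are a description. Without the WSB or the 129 ESC, Tnc, Ccdc80 and Lox did not pass that filter. The whole list summed to 5040 to 6968 CPM in the ESC and to 994 to 2054 in the iPSC, and 12 members had no count in any iPSC. The 10 defining fibroblast markers summed to 512 to 959 CPM in the ESC and 0 to 89.5 in the iPSC, where 4 were at 0 throughout.

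Col1a1 stood at 321, 396 and 465 CPM in the NOD, WSB and 129 ESC. Of the iPSC, 8 had no Col1a1 read pair and the highest held 33.6 CPM (log2 fold change -6.20, SE 0.47, adjusted p = 3.66e-08 in edgeR). Col12a1, a collagen that lies on fibrils, had 14, 23 and 34 read pairs in the same ESC and none in any iPSC, and was at least 111-fold lower there. Tnc (tenascin C), a matrix glycoprotein, had 7, 16 and 22 read pairs and none in iPSC, at least 70.6-fold lower, and Ccdc80, a secreted matrix protein, 7, 15 and 24 and none, at least 72.2-fold lower. DESeq2 gave Col12a1 an adjusted p of 0.0597 and Ccdc80 one of 0.385. Lox, the enzyme that links collagen chains, had 1 read pair in the 12 iPSC against 48 in the 3 ESC. The other called members included Fbln2, Thbs1, Timp3, Col5a1, Vim, Serpinh1, Tpm1 and Col4a1, with log2 fold changes from -5.45 (Fbln2) to -1.49 (Col4a1).

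The 3 ESC allow 6 orders, and Col1a1 had the order 129, WSB, NOD from high to low. Its highest ESC was only 1.45 times its lowest, and the exact 95% counting intervals of 220 to 453 CPM in the NOD ESC and 358 to 594 in the 129 ESC overlapped. Col1a2, Col12a1 and Tnc stood in the same order. Col1a2 had a wider range, at 40.2, 48.2 and 203 CPM in the NOD, WSB and 129 ESC. Its counting intervals of 10.9 to 103 CPM in the NOD ESC and 135 to 294 in the 129 ESC did not overlap. With the overlapping intervals of Col1a1 itself, its order separates genes weakly.

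Of the 208 genes lower in iPSC, 16 (7.69%) had the Col1a1 order, as did 14% of all tested genes. They held 7 of the 14 called matrix genes, namely Col12a1, Ccdc80, Tnc, Lox, Col1a1, Thbs1 and Col5a1, with log2 fold changes from -7.76 to -4.33. The other members ran from -2.61 (B430319G15Rik) to -1.02 (Rere) and included Hk1, a hexokinase. Asking also for a highest ESC of at least 2 times the lowest, which Col1a1 itself does not meet, left 6 genes, or 2.88% against 5.19% of all tested. They were Ccdc80, Tnc, Lox, Hk1, Lrrc56 and Pcdhga12. The other 192 lower genes, 92.3% of them, did not share the order.

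Among the lower genes the commonest orders began with NOD. For 122 of the 208 the NOD ESC was the highest, beside 36.6% of tested genes, and for 93 the WSB ESC was the lowest, beside 37%. Without the NOD ESC 83 genes were called lower, without the WSB ESC 137 and without the 129 ESC 120. Fbln2 and Timp3, which are matrix genes, also departed from the Col1a1 order.

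**Figure D3:**
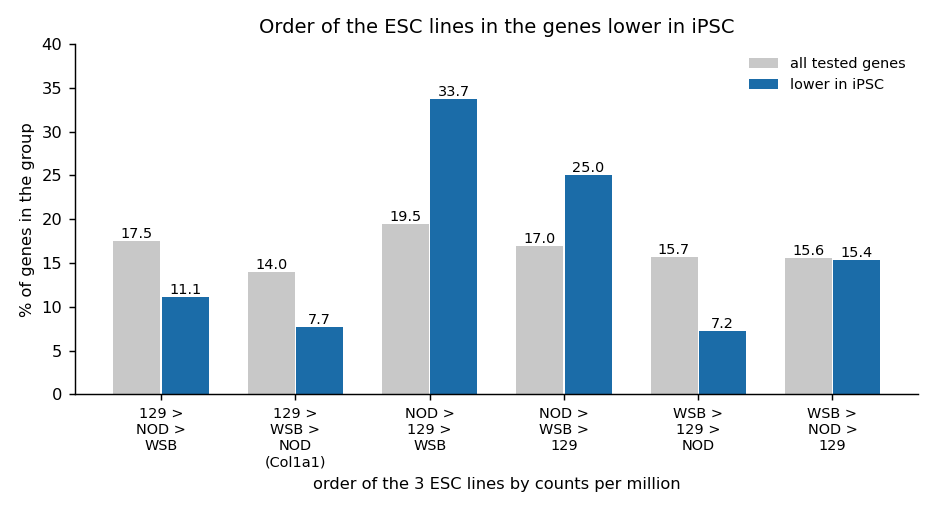
Share of genes (vertical axis, in percent) with each of the 6 orders of the ESC lines by CPM (horizontal axis, highest first), for all tested genes in grey and for genes lower in iPSC in blue. The order of Col1a1 holds 14% of tested and 7.69% of lower genes, and the order NOD, 129, WSB holds 19.5% and 33.7%.

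With the log2 CPM of Col1a1 as a term of the fit, 0 genes passed in edgeR, 351 had an unadjusted p under 0.05, and the smallest adjusted p was 0.19. All ESC had at least 321 CPM of Col1a1 and all iPSC at most 33.6, so cell origin and Col1a1 could hardly be separated by this fit. For 222 of the 248 genes the fitted direction was the same as without the term.

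A position in the genome, which the comparison did not use, was common among genes lower in iPSC. For 69 of the 206 lower genes found in the annotation (33.5%), at least 50% of the exon bases lie inside an intron of a gene on the opposite strand. This was true of 7.3% of all tested genes and of 1 of the 40 higher genes (2.5%). Members low in all iPSC, such as Ecm2, Ogn and Omg, could pass the filter on low counts only through other libraries. Their direction was fixed by it, so the share among lower genes is a description. A further 86 lower genes (41.7%) have exons opposite other exons, against 43.2% of tested genes, and 51 (24.8%) have nothing on the opposite strand, against 48.9%. Genes inside opposite introns held 7.74% to 8.4% of all gene counts in the ESC and 5.66% to 6.82% in the iPSC, without overlap. Only 1 of the 69 genes, Tnc, had the Col1a1 order. What part these introns have in the counts was not tested.

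**Figure D4:**
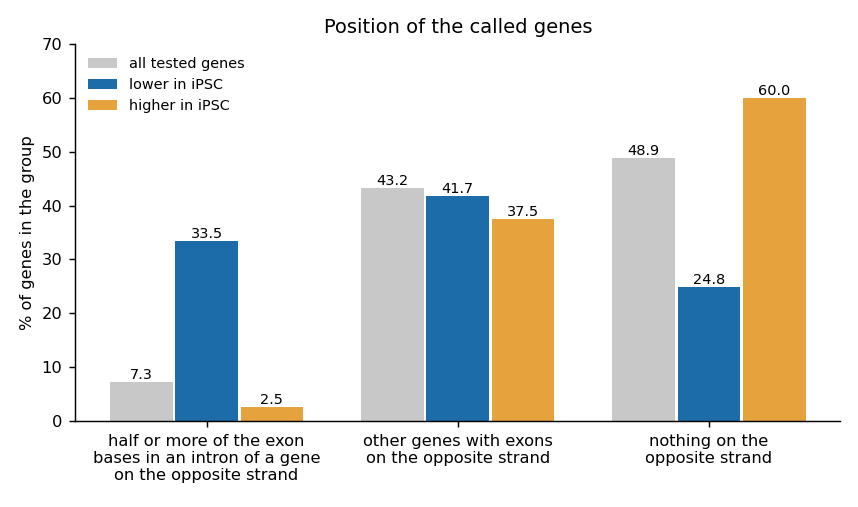
Share of genes (vertical axis, in percent) by what lies on the opposite strand (horizontal axis), for all tested genes (grey), genes lower in iPSC (blue) and genes higher in iPSC (orange). Genes inside an opposite-strand intron are 7.3% of tested, 33.5% of lower and 2.5% of higher genes. The filter on low counts fixed the direction of members low in all iPSC, so the share of lower genes is a description.

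One such cluster lies on chr13, within the gene Cenpp (chr13:49464023-49652785, minus strand), which encodes a protein of the centromere. The introns of Cenpp hold Ecm2, Aspn, Omd and Ogn on the plus strand, which encode proteins of connective tissue, 3 of them small leucine-rich proteoglycans. Ecm2 stood at 311, 231 and 211 CPM in the NOD, WSB and 129 ESC and Ogn at 311, 270 and 218, while the iPSC had at most 54.5 and 48.6 (log2 fold changes -3.50 and -3.32, SE 0.42 and 0.43). Aspn and Omd had log2 fold changes of -3.14 and -2.67. All 4 genes were lower in every iPSC than in every ESC, and none had the Col1a1 order. Ecm2, Ogn and Aspn, low in all iPSC, could pass the filter on low counts only through other libraries, which fixed their direction. Cenpp itself had a log2 fold change of 0.32 that did not pass.

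Other large decreases had the same position. Omg, a myelin glycoprotein, lies in an intron of Nf1 and had 27 read pairs in the ESC and 2 in the iPSC, a pooled ratio of 63.6-fold with an exact 95% interval from 16 to 552. Lrrn3, a neuronal membrane protein, lies in Immp2l (log2 fold change -5.14), Col10a1, a collagen of growth plate cartilage, opposite Nt5dc1 (-4.85), and Timp3, an inhibitor of matrix proteases, opposite Syn3 (-4.98). B3galt2, a galactosyltransferase, lies in Cdc73 (-3.81), Filip1l in Cmss1 (-3.31), Fam196a in Dock1 (-4.52) and Chad, a cartilage protein, in Acsf2 (-2.72). Angpt2, a ligand of the receptor Tie2, lies in Mcph1 (-2.23). Without the strand setting, reads of these genes and of the introns around them cannot be told apart. Those low in all iPSC, such as Omg, Lrrn3, Col10a1 and Fam196a, could pass the filter on low counts only through other libraries. Their direction was fixed by it.

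Xist, the RNA that silences an X chromosome in female cells, was counted at 5953, 5885 and 4330 CPM in the 3 ESC, all of them male, and at 864 to 2919 in iPSC (log2 fold change -1.74, SE 0.31, adjusted p = 0.000802 in edgeR). Of its exon bases 89% lie in an intron of Tsix, the antisense gene of Xist. Female iPSC held 1049 to 2919 CPM of Xist and male iPSC 864 to 2369, so the counts did not separate the sexes. Tsix was counted at 11.7 to 782 CPM in female iPSC and 0 to 49.2 in male iPSC. The nuclear RNA Malat1, at 1524 to 2530 CPM in ESC and 179 to 663 in iPSC, fell by 2.33, and Kcnq1ot1, an RNA antisense to Kcnq1 that lies in its introns, fell by 2.18. Of 17 tested imprinted genes 3 fell, Kcnq1ot1, Gnas (-1.51) and its antisense partner Nespas (-1.78), and Impact rose. That is 23.5% called, beside 6.22% of all tested genes, for a list chosen with earlier results of these data known. The iPSC and ESC of Impact overlapped, and it missed the threshold without each ESC in turn (edgeR adjusted p from 0.0876 to 0.105). Nespas rested on the WSB ESC, at 231 CPM beside 50.2 and 29.1 in the NOD and 129 ESC and at most 48.9 in iPSC, and without that line its log2 fold change was -0.43 (edgeR adjusted p = 0.75).

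Several genes of glucose use fell, and of these Hk1 alone had the order of Col1a1. Of 11 tested members of the list of glycolysis enzymes and glucose carriers, 5 fell and 0 rose, and the median log2 fold change was -1.01. That is 45.5% called, beside 5.22% of all tested genes lower. The list was chosen with earlier results of these data known, so this share is a description and gives no independent evidence. Aldoa (aldolase A) stood at 843, 1302 and 1010 CPM in the NOD, WSB and 129 ESC and at 290 to 626, median 437, in iPSC (log2 fold change -1.29, SE 0.21, adjusted p = 0.000283 in edgeR). Slc2a1, the glucose carrier of the cell membrane, stood at 271, 232 and 305 CPM in ESC and 40.2 to 131 in iPSC, and fell by 1.63. Both were lower in every iPSC than in every ESC. Gpi1 (glucose phosphate isomerase), Tpi1 (triose phosphate isomerase) and Hk1 (hexokinase 1) fell too, with log2 fold changes of -1.51, -1.59 and -2.48. Hk1 stood at no more than 32.7 CPM in iPSC and passed the filter on low counts only through the ESC, which fixed its direction. Without the WSB or the 129 ESC, Hk1 was not tested. Tpi1 missed the threshold with aligned pairs as library size (edgeR adjusted p = 0.0606) and without the WSB or the 129 ESC (0.117 and 0.14). The other 6 members did not pass, with log2 fold changes from -1.01 (Pfkl) to 0.49 (Pfkp). All 5 called members have exons opposite another gene, from 25 bases in Aldoa to 741 in Gpi1. Of Aldoa 49.7% of the exon bases also lie in an intron of Fam57b.

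Genes known to respond to low oxygen were among the decreases. They were gathered after their values were seen, as a list of 50 genes that shares members with the lists of glycolysis and matrix genes. Of 24 tested, 15 fell and 0 rose, with a median log2 fold change of -1.61, and 22 had a negative value. Members low in iPSC, such as Lox, Hk1 and Ndrg1, passed the filter on low counts only through the ESC. Their direction was fixed by it, and the count and median are a description. Of all tested genes 5.22% fell and the median was 0.05, and with aligned pairs as library size 13 of the list fell, without Tpi1 and Ak4. Vegfa, the growth factor of blood vessels, had 24, 9 and 46 read pairs in the NOD, WSB and 129 ESC, or 241, 86.8 and 334 CPM, and at most 78.2 CPM in iPSC, with a median of 19.7. Its log2 fold change was -3.10 (SE 0.56, adjusted p = 0.000894 in edgeR), nothing lies on its opposite strand, and its order was 129, NOD, WSB. Ak4, an adenylate kinase of mitochondria, also has nothing on its opposite strand and fell by 1.92.

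Car9, a carbonic anhydrase of the cell surface, had 19, 5 and 6 read pairs in the same ESC and 0 to 3 in the iPSC (log2 fold change -3.55, SE 0.62, adjusted p = 0.000659 in edgeR). Without the NOD ESC its edgeR adjusted p was 0.0668. Car9 shares 214 exon bases with Gm12454 on the opposite strand. Of the 15 called members of the list, 11 have exons opposite another gene. Hif1a, the oxygen-regulated subunit of the factor HIF1, stood at 1215, 222 and 661 CPM in ESC and 32.7 to 147 in iPSC (log2 fold change -3.06, SE 0.32), but 94.4% of its exon bases lie in an intron of Gm15283 on the opposite strand. Ndrg1, Bhlhe40 and Plod2 fell, with log2 fold changes of -3.62, -2.85 and -1.92, and share exon bases with opposite-strand genes. The iPSC and ESC of Ndrg1 overlapped. The HIF factors bind the letters ACGTG. This motif, on either strand of the 250 bases before the RefSeq start site, was found for 3 of 9 called genes of the list that have a promoter in the table, for 31.5% of all genes called lower with one and for 23.7% of tested genes with one. CACGTG, the E-box that holds ACGTG and is bound by Myc with its partner Max, was found for 0 of 31 genes higher in iPSC and for 8.93% of tested genes with a promoter. Stretches of 2 of the 3 promoters with ACGTG are shown to place the motif, which is in capitals, 5′ to 3′ on the plus strand (GRCm38.p6), at chr4:43506981-43507025 for Car9, where it reads CACGT on this strand, and at chr4:119108682-119108741 for Slc2a1.
Car9: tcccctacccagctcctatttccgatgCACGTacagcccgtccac
Slc2a1: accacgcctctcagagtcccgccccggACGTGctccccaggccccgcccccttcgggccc
The motifs begin 18 and 36 bases before the start sites, and a match shows the letters alone.

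The 10 largest decreases outside the Col1a1 rule among genes with a mean of at least 10 CPM in iPSC held genes of several kinds. They included the matrix genes Thbs1 and Col5a1, which have the Col1a1 order but whose highest ESC is under 2 times the lowest. Keap1, which holds the oxidative stress factor Nrf2 in check, stood at 452, 261 and 233 CPM in the ESC and 9.73 to 48.9 in iPSC. Its log2 fold change was -3.42 (SE 0.31, adjusted p = 4.67e-07 in edgeR), and it shares 510 exon bases with Gm16754. Low in all iPSC, Keap1 could pass the filter on low counts only through other libraries, which fixed its direction. Srrm4, a splicing factor of neurons, fell by 3.47, and Prss57, a serine protease of neutrophils, had a log2 fold change of -3.44, sharing 1157 exon bases with Fstl3. D030025P21Rik, a noncoding transcript that shares 764 bases with Ltbp2, fell by 4.39. The genes named next are not among these 10. Stag1, a cohesin subunit picked after its values were seen, fell by 3.22. It stood at 2068, 106 and 908 CPM in the NOD, WSB and 129 ESC, and at 48.9 to 214 in iPSC. The WSB ESC thus lay within the iPSC. Itgb1, the shared chain of many integrins, fell by 1.17 as the single call among 14 tested genes of actin, adhesion and junctions. Cdkn1a, the cell cycle inhibitor p21, fell by 1.78 as the single call among 10 tested stress genes. With aligned pairs as library size Itgb1, Cdkn1a, Col4a1 and Nespas were not called. Of 6 tested endoderm and trophectoderm genes Col4a1 alone was called, and of 2 tested sex-linked markers Xist alone.

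**Figure D5:**
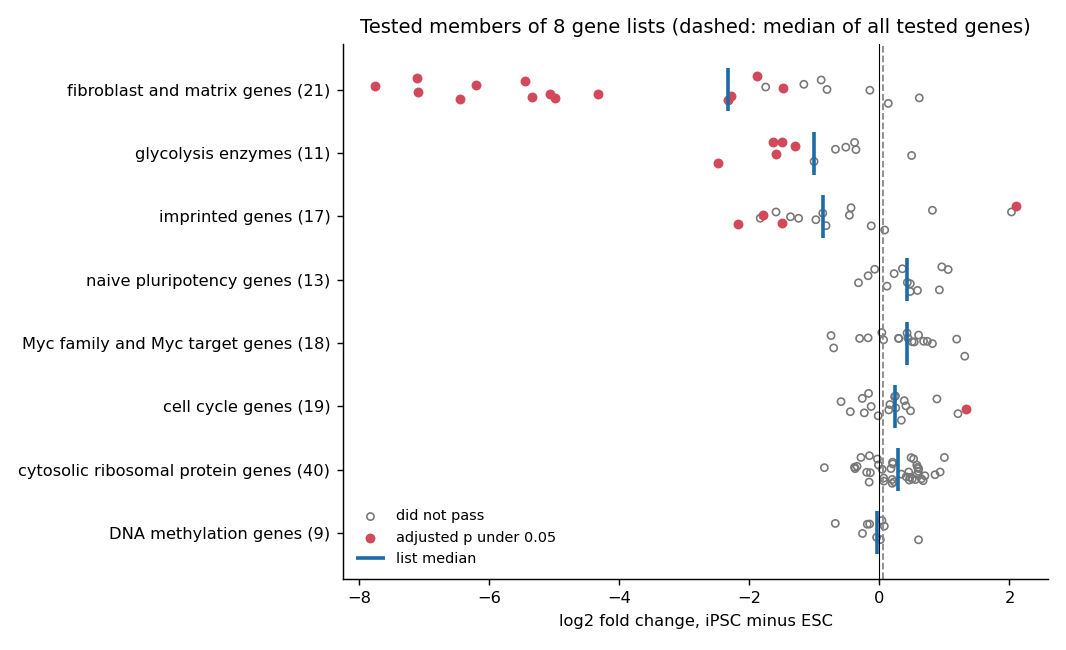
Log2 fold change of iPSC minus ESC (horizontal axis) of the tested members of 8 lists (vertical axis, with the number tested), filled where the adjusted p was under 0.05, with a bar at each list's median and a dashed line at the median of all tested genes. Called members lie left of 0 in the matrix and glycolysis lists, and none was called in the naive, Myc target, ribosomal and DNA methylation lists.

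The difference between iPSC and ESC was also compared between strains. In edgeR 0 of 3049 tested genes had an interaction of strain and cell origin, 194 had an unadjusted p under 0.05, and the smallest adjusted p was 0.0835. DESeq2 called 1 gene. With 1 ESC line a strain, the spread in this test came from the iPSC alone. Within the strains, the log2 fold change of Myc was 3.88 in 129, 6.82 in NOD and 4.57 in WSB, and that of Aldoa was -1.32, -0.90 and -1.59.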

How the data were processed

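RNA of 12 iPSC, 3 ESC and 2 EpiSC libraries was fitted, the EpiSC to share the estimate of the spread and the filter on low counts (without them 3049 genes were tested in place of 3986). Values are raw counts of read pairs for 23420 genes, which the authors deposited after trimming (Trimmomatic), alignment (TopHat2 2.1.1) and counting (HTSeq). Summary lines of no gene were left out. Groups follow the titles. Source names and characteristics name another strain, clone or condition in all 19 samples and were run as an alternative. EdgeR 4.0.16 in R 4.3.3 was used with TMM, filterByExpr and quasi-likelihood tests, an adjusted p under 0.05, and SE as the absolute log2 fold change over the root of F. DESeq2 1.42.0 was an alternative. CPM use TMM, and log2 CPM a prior count of 2. Positions come from GENCODE M21 (GRCm38), which matched 98.5% of genes. The fits were tested on simulated data. Named genes were the 5 markers and the 15 largest changes each way without overlap of the groups. Added were the 10 largest decreases with mean iPSC CPM of 10 or more, outside the class with the Col1a1 order and a 2-times range. Called members of 21 lists, the reprogramming factors and opposite-strand neighbours were named too. The members and lists were chosen with earlier results of these data known. Libraries share clones and strains, and nothing states separate cultures for the 2 libraries of a clone, so p-values measure the spread between these samples. Some genes that the rule names are not reported here.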

Additional observations from a re-analysis of the deposited data

Results flagged for a closer look

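Both NOD male iPSC clones, which the comparison did not use, held Myc and Id2 above all ESC. On a scale set with all 19 libraries, clone 3 had 43.6 CPM of Myc and clone 35 had 326, beside at most 14.9 in the ESC. Id2 stood at 14.1 and 45 CPM in these clones, and the ESC had 0. In these 2 libraries 5.59% to 5.62% of uniquely aligned pairs fell on genes, beside at most 1.74% in the other ESC and iPSC libraries, and the part of this in the values was not tested.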

How the results depend on the processing

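Of 248 calls (40 higher, 208 lower), these settings moved a count by over 1.5 times. No filter on low counts gave 600 (86 higher, 514 lower), at least 10 counts in every library 45 (12 and 33), and an adjusted p under 0.01 gave 111 (5 and 106). Aligned pairs as library size gave 197 higher and 129 lower, strain as a covariate, which compares within strains, 318 (64 and 254), and male iPSC alone 19 higher. Genes without opposite-strand exons gave 113 (23 and 90), and those with neither exons nor introns opposite, a setting chosen after seeing the data, 40 (8 and 32), over 2039 and 1932 tested genes. Leaving out 1 ESC gave 88 to 156 calls, 5 to 19 higher and 83 to 137 lower, with the fewest without the NOD line. In edgeR the Col1a1 term and grouping by source name and characteristics both gave 0, with 351 and 153 genes at an unadjusted p under 0.05. Under that grouping the log2 fold change changed sign for Myc (-0.19), Poglut1 (-0.20), Ydjc (-0.43), Gcsh (-0.21), Slc25a3 (-0.064), Rmnd5b (-0.39), Dnttip2 (-0.10), Eef1b2 (-0.084), Eef1d (-0.27), Ccdc80 (0.015), Vim (0.39), Nespas (0.48), Cdkn1a (0.27), Hk1 (0.036), Gpi1 (0.13), Aldoa (0.12), Tpi1 (0.60) and Itgb1 (0.056). With the Col1a1 term it did for Col1a1 (3.76), Tnc (0.83), Thbs1 (0.88), Serpinh1 (3.44), Cdkn1a (0.42) and Nat10 (-0.22). None passed there. Dropping the minimum of 2 times moved the genes that follow Col1a1 from 6 to 16, while Col1a2 or Tnc as the marker, or DESeq2 size factors, left 6. The interaction moved from 0 genes to 1 with DESeq2 and 30 without a filter. The causes were not tested.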

Other observations

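The 2 EpiSC lines, on the same scale of 19 libraries, had 17.4 and 25.5 CPM of Col1a1, while Tnc stood at 5.8 in the NOD line and 110 in the 129 line. Car9 reached 452 and 1155 CPM in the NOD and 129 EpiSC, above the 44.8 to 192 of the ESC, while Vegfa stood at 75.4 and 59.5. In the NOD male iPSC clones 3 and 35, Vegfa stood at 25.3 and 12.6 CPM and Car9 at 1.41 and 5.4, below all ESC. Aldoa stood at 956 and 958 CPM there, within the 850 to 1358 of the ESC.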
